A study of Mus musculus with 20 samples.

Results

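The VEGF family genes described here are the ligands Vegfa, Vegfb, Vegfc and Pgf, the receptors Kdr, Flt1 and Flt4, and the co-receptors Nrp1 and Nrp2. They were chosen by name, 9 of the 42290 genes summed from the deposited transcript tables, and all 9 were found and passed the filter on low counts. RNA had been sequenced from CD31+CD45- endothelial cells, the cells that line blood vessels, sorted from 2 leg muscles of C57BL/6N mice. The soleus is called the oxidative and the extensor digitorum longus the glycolytic muscle. The 4 groups of 5 libraries were oxidative Atf4 ECKO, oxidative wild type (WT), glycolytic Atf4 ECKO and glycolytic WT. ECKO cells came from mice in which Atf4, which encodes a stress-responsive transcription factor, had been deleted in endothelium. Mice of 8 to 10 weeks in all groups received 1 mg tamoxifen per day for 5 days and then at least 7 days of rest. WT mice were littermates without Cre, so the Cre recombinase itself differed between the genotypes along with the deletion. The labels name neither the Cre line nor the animals behind a library, so p-values measure only the spread between libraries, which may be technical.

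VEGF ligands are secreted growth factors that act on tyrosine kinase receptors of endothelial cells. VEGF-A signals mainly through KDR (VEGFR2) to drive vessel growth and permeability, and muscle fibres are a known source of it. PlGF, the product of Pgf, and VEGF-B bind FLT1 (VEGFR1), which holds ligand with high affinity and signals weakly, so that FLT1 and its soluble form act as traps for VEGF-A. VEGF-C activates FLT4 (VEGFR3), best known from lymphatic vessels, and the neuropilins bind both VEGFs and class 3 semaphorins.

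Library totals ran between 8013223 and 21720127 estimated counts. Levels are given as CPM, counts scaled to library size with trimmed-mean (TMM) factors, for comparisons between groups, and as TPM, which is adjusted for transcript length, for comparisons between genes. Atf4 averaged 8.29 CPM ± 0.352 in oxidative ECKO against 554 CPM ± 21 in oxidative WT, and 7.38 CPM ± 0.996 in glycolytic ECKO against 262 CPM ± 13.5 in glycolytic WT (SD, n = 5 each). All 12 pan-endothelial markers were detected and summed to between 9916 and 12410.1 CPM in every library. Of these 12 markers, 5 rose and 2 fell in oxidative ECKO and 1 rose and 8 fell in glycolytic ECKO. That is 58.3% and 75%, against 32% and 29% of all genes tested. The pan-leukocyte gene Ptprc stayed at or below 3.46 CPM. Sex-linked RNA did not follow the groups evenly. Oxidative ECKO libraries 1 to 3 held between 28.2% and 57.5% of the WT level of 4 Y-linked genes, libraries 4 and 5 held 0.817% and 0.961%, and glycolytic ECKO libraries held at most 1.62%. Xist, an X-linked RNA, stood at 18.6, 18, 43.8, 81.6 and 76.2 CPM in oxidative ECKO libraries 1 to 5. It lay between 59.3 and 66.4 CPM in glycolytic ECKO and at or below 0.274 CPM in both WT groups. Genotype and sex-linked RNA therefore cannot be told apart in either muscle, and the ECKO groups of the 2 muscles differed in sex-linked RNA as well. Oxidative ECKO libraries 1 to 3 and libraries 4 and 5 were also fitted apart.

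Per unit of length, the family formed 3 tiers. Nrp1, Pgf, Kdr and Flt1 were abundant, at mean levels of 336, 329.8, 239.6 and 229 TPM over the 20 libraries, which placed them at ranks 385, 397, 547 and 568 of the 13964 genes tested. Nrp2, Flt4 and Vegfc stood at 36, 34 and 30.7 TPM. Vegfb followed at 5.18 TPM and Vegfa at 0.3 TPM, rank 13565. The order within the upper tier depended on the group. Pgf came first in oxidative ECKO (445 TPM ± 115) and oxidative WT (436 TPM ± 37.2), second in glycolytic ECKO (302 TPM ± 6.5) and below Nrp1, Kdr and Flt1 in glycolytic WT (135 TPM ± 8.42; SD, n = 5 each). Nrp1 led in both glycolytic groups, at 361 TPM ± 8.47 in ECKO and 363 TPM ± 9.6 in WT. In oxidative ECKO the ranges of Pgf, Nrp1, Kdr and Flt1 overlapped from each gene to the next, so their order there is not resolved. In glycolytic ECKO, Flt1 (256 TPM ± 8.18) and Kdr (238 TPM ± 4.05) overlapped as well, whereas in both WT groups the ranges of these 4 genes were apart. Neighbours in the middle tier whose ranges overlapped were Flt4 and Nrp2 and then Nrp2 and Vegfc in oxidative ECKO, Nrp2 and Vegfc and then Vegfc and Flt4 in oxidative WT, and Flt4 and Vegfc in glycolytic ECKO.

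**Figure D1:**
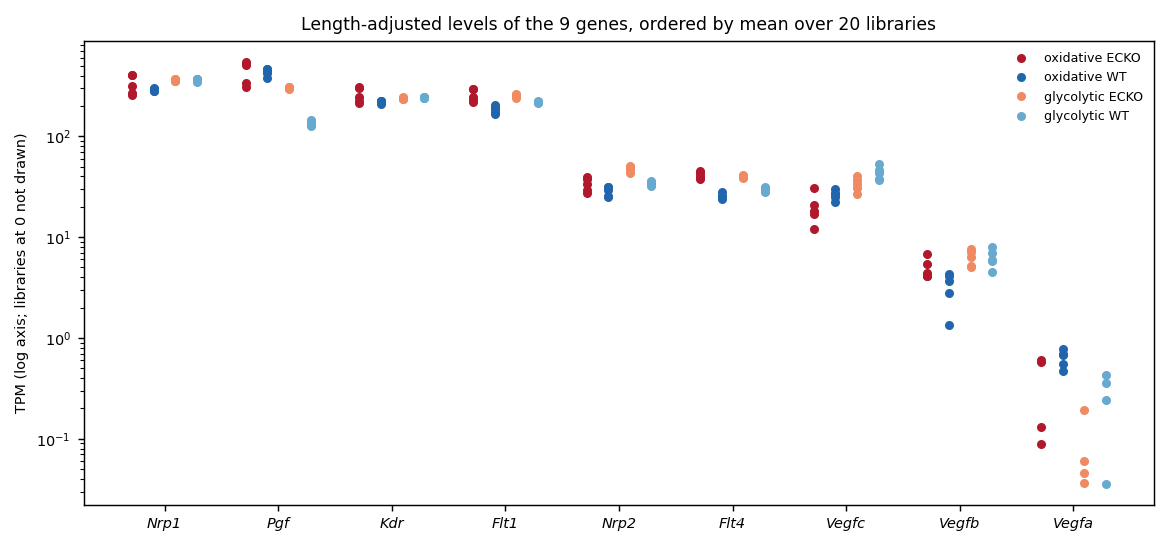
TPM of the 9 genes on a log axis, 1 point per library, with the 4 groups side by side and libraries at 0 not drawn. Pgf runs between 126 and 145 TPM in glycolytic WT and between 379.7 and 469 TPM in oxidative WT, whereas Vegfa lies below 1 TPM in every library.

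Genes were called with edgeR's quasi-likelihood test at a Benjamini-Hochberg adjusted p below 0.05. Between oxidative ECKO and oxidative WT, 4 of the 9 genes were called (44.4%, against 32% of all genes tested, 14.6% higher and 17.4% lower): Flt1 and Flt4 rose, Vegfa and Vegfc fell. Between glycolytic ECKO and glycolytic WT, 4 of 9 were called (44.4%, against 29%, 13.9% higher and 15.1% lower): Pgf, Flt4 and Nrp2 rose and Vegfc fell. Between the oxidative and glycolytic muscles, 5 of 9 were called in ECKO (55.6%, against 18.4%, 8.31% higher and 10.1% lower), with Pgf, Kdr and Flt4 higher and Vegfc and Nrp2 lower in oxidative muscle. In WT, 4 of 9 were called (44.4%, against 32.4%, 16.4% higher and 15.9% lower), with Pgf and Vegfa higher and Vegfb and Vegfc lower. The interaction, which tests whether the genotype effect differed between the muscles, called Pgf and Nrp2, both negative, 2 of 9 (22.2%, against 22.7%, 10.2% positive and 12.5% negative). With 9 genes, these shares are close to the background except in the muscle comparison of ECKO cells. There, 2 of the 5 calls are lost in several alternatives. The oxidative genotype share and the WT muscle share include Vegfa, which passed the low-count filter through oxidative WT alone. The filter thus favoured the direction of those 2 calls. The median log2 difference of the 9 genes was -0.03 and -0.10 for genotype in oxidative and glycolytic muscle, against 0.02 and 0.0041 over all genes. In sorted bulk RNA, fewer cells of a kind and less RNA per cell cannot be told apart.

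**Figure D2:**
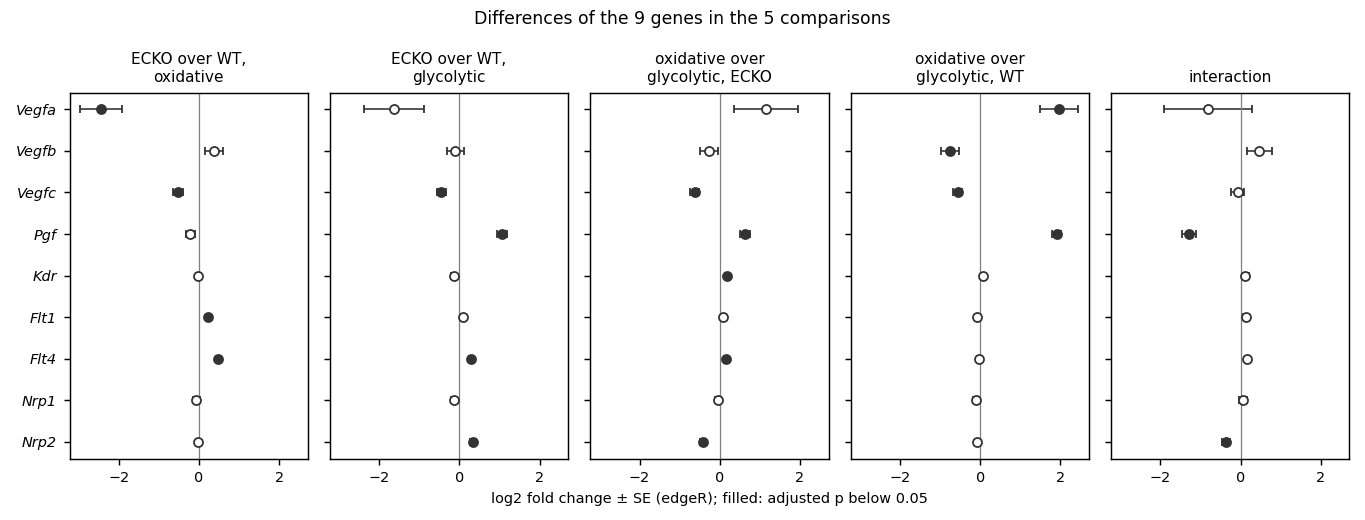
Log2 fold change ± SE of the 9 genes (rows) in the 5 comparisons (panels), from edgeR; filled points have an adjusted p below 0.05. Vegfa in oxidative muscle stands at -2.45, Vegfa and Pgf between the muscles in WT stand at 1.97 and 1.91, and Vegfc lies left of 0 in the 4 panels that compare groups.

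Pgf (ENSMUSG00000004791.7, chr12:85166635-85177790, minus strand, GRCm38) encodes placental growth factor and was the ligand with by far the highest level. Its 2 promoter windows in RefSeq (250 bases before to 50 after each start, build GRCm38.p6) were searched on both strands for 5 motifs: the cAMP response element TGACGTCA, the core of the C/EBP-ATF response element TGATGNAA through which ATF4 acts on many stress genes, the AP-1 site TGANTCA, and the hypoxia element core in its forms ACGTG and GCGTG. The upstream window, chr12:85177264-85177563, held 1 match, to GCGTG on the minus strand, which 32.4% of the 32851 promoters in the table also hold, and the window at chr12:85175933-85176232 held none. The upstream window is shown because Pgf had the clearest change of the family, with the match in capitals.
Pgf promoter: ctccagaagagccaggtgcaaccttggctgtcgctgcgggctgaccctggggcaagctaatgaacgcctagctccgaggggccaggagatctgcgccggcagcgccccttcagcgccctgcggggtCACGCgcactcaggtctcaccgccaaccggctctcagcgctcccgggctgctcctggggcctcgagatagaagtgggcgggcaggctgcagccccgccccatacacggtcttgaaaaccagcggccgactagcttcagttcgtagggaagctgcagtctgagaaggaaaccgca
The letters describe this window only and say nothing about which factor binds there.

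In glycolytic muscle, Pgf stood at 327, 328, 323, 333 and 339 CPM in ECKO libraries, against 169, 149, 159, 163 and 149 CPM in WT libraries. Every ECKO library was above every WT library, and the log2 fold change was 1.06 ± 0.12 (SE, edgeR adjusted p = 1.36e-07). In oxidative muscle, Pgf stood at 651, 603, 585, 367 and 337 CPM in ECKO libraries 1 to 5, against 541, 607, 623, 573 and 612 CPM in WT libraries. The first 3 ECKO libraries lay in and above the WT range and the other 2 below it, and the difference did not pass (-0.22 ± 0.12, edgeR adjusted p = 0.166), though it did without ECKO library 1 (-0.32, adjusted p = 0.0279). With ECKO libraries 1 to 3 alone the log2 value was 0.05 (edgeR adjusted p = 0.523), and with libraries 4 and 5 alone it was -0.75 (edgeR adjusted p = 2.48e-10). The difference between the 2 genotype effects was -1.28 ± 0.17 (edgeR adjusted p = 1.99e-06). It was -1.01 with ECKO libraries 1 to 3 and -1.81 with libraries 4 and 5, past the threshold in both.

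Between the muscles, Pgf averaged 591 CPM ± 33.5 in oxidative WT against 158 CPM ± 8.61 in glycolytic WT, a log2 difference of 1.91 ± 0.12 (edgeR adjusted p = 2.63e-12) with no overlap between libraries. In ECKO it averaged 509 CPM ± 145 in oxidative against 330 CPM ± 6.23 in glycolytic muscle, 0.62 ± 0.12 (edgeR adjusted p = 3.9e-04). That second difference rested on oxidative ECKO libraries 1 to 3 (613 CPM on average, log2 difference 0.89), since libraries 4 and 5 (352 CPM) differed from glycolytic ECKO by 0.09 (edgeR adjusted p = 0.353). The coding transcripts Pgf-201 and Pgf-204 moved alike in glycolytic muscle, by 1.04 ± 0.14 and 0.96 ± 0.19 (transcript-level edgeR adjusted p = 3.47e-05 and 0.00188, where 9.08% of all transcripts tested were called). Pgf-201 took between 96.3% and 97.7% of the Pgf TPM in every library.

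In glycolytic muscle, markers of other cells moved with Pgf in part. The 9 fibroblast markers summed to between 134 and 139 CPM in glycolytic ECKO against 66.8 to 73.7 CPM in glycolytic WT. There 4 of the 9 rose (44.4%, where 29% of all genes were called in either direction). The 11 pericyte and smooth muscle markers summed to between 2008 and 2074 CPM in glycolytic ECKO against 870.4 to 884 CPM in glycolytic WT. By the test 2 were higher and 2 lower (36.4% called). The rise of the sum came from Acta2 (1024 CPM in ECKO against 189 CPM in WT) and Tagln (519 against 130.1 CPM). Pdgfrb (24.9 against 34.7 CPM) and Higd1b (3.77 against 6.72 CPM) fell, so the sum does not describe the list as a whole. The 17 muscle fibre markers summed to between 174 and 186 CPM in glycolytic ECKO against 76 to 84.5 CPM in glycolytic WT, and 11 of the 17 rose (64.7%). Of 6 satellite cell markers 3 rose and 2 fell there (83.3%). Among them Pax7, the satellite cell transcription factor, rose by 2.42 ± 0.57 and Myf5, a myogenic factor, by 1.47 ± 0.32 (edgeR adjusted p = 0.00197 and 8.38e-04). Pax7 was low, at 1.53 CPM in glycolytic ECKO against 0.293 CPM in glycolytic WT. Vcam1 fell by -0.19 ± 0.06 (edgeR adjusted p = 0.0236). The sum of the 6 overlapped, at 102 to 108 CPM in glycolytic ECKO against 102 to 116 CPM in glycolytic WT. Between the WT muscles, where 32.4% of all genes were called in either direction, 88.9% of fibroblast and 94.1% of muscle fibre markers were called. Of pericyte and smooth muscle markers 54.5% were called there, and of satellite cell markers 83.3%. Over oxidative ECKO libraries 1 to 5, fibroblast markers summed to 70, 70.1, 241, 458 and 449.7 CPM, whereas Pgf fell from 651 to 337 CPM. No marker of these lists was at 0 in every library, and the part of these markers in the Pgf differences was not tested.

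Vegfc (ENSMUSG00000031520.6, chr8:54077606-54187096, plus strand, GRCm38), the ligand of FLT4, was lower in ECKO than in WT cells of both muscles. In oxidative muscle it stood at 23.8, 22.2, 27, 35.9 and 39.4 CPM in ECKO libraries, against 49.9, 44.9, 42.6, 42.3 and 36.7 CPM in WT libraries. Only the highest ECKO library reached into the WT range, and the log2 fold change was -0.52 ± 0.12 (SE, edgeR adjusted p = 9.7e-04). It was -0.82 with ECKO libraries 1 to 3 alone and -0.19 with libraries 4 and 5 alone, where the call is lost (edgeR adjusted p = 0.173). In glycolytic muscle Vegfc stood at 56.9, 43.6, 44.2, 46.6 and 41.1 CPM in ECKO, against 64, 59, 66.3, 63.2 and 66.7 CPM in WT, with no overlap and a log2 fold change of -0.46 ± 0.11 (edgeR adjusted p = 0.00311). On the TPM scale, tested with limma, this value was -0.37 and did not pass (adjusted p = 0.112), while the median of all tested genes was 0.119 higher there. The interaction did not pass with all libraries, passed with oxidative ECKO libraries 1 to 3 (-0.36, edgeR adjusted p = 0.0345) and was 0.27 with libraries 4 and 5 (edgeR adjusted p = 0.139). Oxidative cells held less Vegfc than glycolytic cells in both genotypes, by -0.63 ± 0.12 in ECKO (edgeR adjusted p = 3.54e-04) and -0.56 ± 0.11 in WT (edgeR adjusted p = 2.93e-04).

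Vegfa (ENSMUSG00000023951.17, chr17:46016993-46032369, minus strand, GRCm38), the main ligand of KDR, was barely detected in these sorted cells. Libraries held 4, 1, 6, 0 and 6 estimated counts in oxidative ECKO, 15, 13, 17, 20 and 20 in oxidative WT, 1, 2, 1, 1 and 0 in glycolytic ECKO, and 0, 8, 1, 6 and 13 in glycolytic WT. The oxidative WT libraries were therefore the only group whose libraries all held more than 10 counts. Vegfa passed the low-count filter through this group alone. Both of its calls set this group against another, so the filter favoured their direction and they are no independent support for it. In CPM, oxidative ECKO averaged 0.208 ± 0.146 against 1.28 ± 0.0847 in oxidative WT, a log2 fold change of -2.45 ± 0.51 (edgeR adjusted p = 5e-04). With an offset for transcript length the value was -1.62 and no longer passed (edgeR adjusted p = 0.0686). Oxidative WT also exceeded glycolytic WT (0.29 CPM ± 0.268) by 1.97 ± 0.47 (edgeR adjusted p = 0.00203). Glycolytic ECKO, at 0.0989 CPM ± 0.0808, did not differ from glycolytic WT beyond the threshold (-1.64 ± 0.74, edgeR adjusted p = 0.101), except when glycolytic WT library 1 was left out (-1.87, adjusted p = 0.0429).

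Myeloid markers moved with Vegfa. The 12 genes of that list summed to between 36.3 and 82.8 CPM in oxidative ECKO, 265 and 346 CPM in oxidative WT, 12.8 and 15.5 CPM in glycolytic ECKO, and 16.7 and 19.1 CPM in glycolytic WT. All 11 that were tested fell in oxidative ECKO, where 17.4% of all genes were lower. All 11 were higher in oxidative than in glycolytic WT, where 16.4% of all genes were higher. Several, such as Ptprc at 2.53 CPM in oxidative WT against 0.252 CPM in oxidative ECKO, passed the low-count filter only through oxidative WT. Their common direction was therefore partly set by the filter. Lyz2, a lysozyme of macrophages, and Tyrobp, an adaptor of myeloid receptors, changed by -1.98 ± 0.13 and -3.37 ± 0.22 between oxidative ECKO and oxidative WT (edgeR adjusted p = 1.73e-12 and 3.25e-12). Their part in the Vegfa difference was not tested. None of the 13 Vegfa transcripts passed the low-count filter at transcript level, and some libraries of 3 groups held no Vegfa read, so its isoform shares were not tested. In oxidative WT, where every library had reads, Vegfa-201 took between 24.7% and 100% of the Vegfa TPM.

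Vegfb (ENSMUSG00000024962.13, chr19:6982473-6987651, minus strand, GRCm38), a FLT1 ligand linked to fatty acid handling, was also low. It averaged 3.8 CPM ± 0.841 in oxidative ECKO against 2.87 CPM ± 1 in oxidative WT (0.37 ± 0.23, edgeR adjusted p = 0.222), and 4.63 CPM ± 0.885 in glycolytic ECKO against 4.9 CPM ± 1.04 in glycolytic WT (-0.10 ± 0.22, edgeR adjusted p = 0.778). Neither difference passed, and the libraries of the groups overlapped. On the TPM scale the oxidative difference was 0.67 and passed (limma adjusted p = 0.0306). The median of all tested genes was itself 0.248 higher on that scale, so the value includes that shift. Oxidative WT lay below glycolytic WT by -0.75 ± 0.22 (edgeR adjusted p = 0.00997). The gene makes 2 coding forms that differ in where they start and by 101 bases, kept in Vegfb-201 and spliced out of the other. The stretch of 101 bases is shown in capitals with 15 shared bases on each side (chr19:6985496-6985596, minus strand, GRCm38, GENCODE M21), because of the 2 coding forms only Vegfb-201 holds it.
Vegfb-201: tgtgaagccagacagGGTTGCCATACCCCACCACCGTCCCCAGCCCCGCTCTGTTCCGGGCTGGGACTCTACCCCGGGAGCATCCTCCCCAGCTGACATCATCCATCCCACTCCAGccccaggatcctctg
Vegfb-201 took 54.4% ± 11.7 of the Vegfb TPM in oxidative ECKO against 26.7% ± 15.8 in oxidative WT (SD, n = 5 each). It rose at transcript level by 1.61 ± 0.43 (edgeR adjusted p = 0.0191), and libraries held between 15.49 and 65.41 of its estimated counts in oxidative ECKO against 6.532 to 13.56 in oxidative WT, with no overlap. The call is lost without the low-count filter (adjusted p = 0.0658) and with limma-voom (adjusted p = 0.112).

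Flt1 (ENSMUSG00000029648.13, chr5:147561604-147726011, minus strand, GRCm38) is made as a full-length receptor, with 30 exons, and as a short form with 13. The 2 transcripts share sequence up to the 3′ end of exon 13. There the short form reads on into the intron and meets a stop codon after 95 bases, stop included, which is how the soluble receptor without membrane anchor and kinase arises. The full-length form splices to exon 14. The last 30 shared bases are in lower case and the bases particular to each form in capitals, at chr5:147639130-147639224 for the short form and within chr5:147634429-147634523 for the full-length form (minus strand, GRCm38, GENCODE M21), because the split between trap and receptor turns on this point.
Flt1 short form: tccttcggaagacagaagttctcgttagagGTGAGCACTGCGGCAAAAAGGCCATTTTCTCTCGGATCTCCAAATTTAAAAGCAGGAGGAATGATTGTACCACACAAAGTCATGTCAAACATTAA
Flt1 full length: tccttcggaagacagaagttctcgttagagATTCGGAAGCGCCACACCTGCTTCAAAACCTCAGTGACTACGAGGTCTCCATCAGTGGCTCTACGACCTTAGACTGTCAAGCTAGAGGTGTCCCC
Beyond the shared part the short form has 4066 bases and the full-length form has 4646, so each form has a long stretch of its own for reads to fall in. The stretch of the short form is intron sequence of the full-length form. Reads from RNA that still holds this intron would therefore count toward the short form, and their part was not tested.

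Flt1 expression was higher in ECKO than in WT cells of oxidative muscle. It stood at 1139, 1174, 1176, 1382 and 1343 CPM in oxidative ECKO libraries, against 1138, 1096, 954, 1134 and 983 CPM in oxidative WT libraries. Every ECKO library was at or above the highest WT library, the first by about 1 CPM, and the log2 fold change was 0.23 ± 0.05 (edgeR adjusted p = 0.00189). It was 0.13 with ECKO libraries 1 to 3 and 0.36 with libraries 4 and 5, past the threshold in both. In glycolytic muscle Flt1 averaged 1180.5 CPM ± 14.5 in ECKO against 1112 CPM ± 9.78 in WT. The ECKO libraries again lay above all WT libraries, but the difference of 0.09 ± 0.05 did not pass in the fit of all 20 libraries (edgeR adjusted p = 0.253). In a fit of the glycolytic groups alone it was 0.09 ± 0.03 (edgeR adjusted p = 0.00778). The interaction did not pass with all libraries (0.14 ± 0.08, edgeR adjusted p = 0.201) and passed with oxidative ECKO libraries 4 and 5 (0.28, adjusted p = 0.00447). Those 2 libraries alone also put oxidative above glycolytic ECKO (0.21, adjusted p = 0.0108).

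Both Flt1 forms rose in oxidative ECKO. The short form stood at 78.6, 83.5, 85.5, 109 and 104 TPM in oxidative ECKO libraries, against 65, 62, 54.2, 63.3 and 59.1 TPM in oxidative WT libraries, and the full-length form at 138, 140, 148, 171 and 164 TPM in oxidative ECKO, against 114, 115, 108, 123 and 110 TPM in oxidative WT. The median of all tested genes was itself 0.248 higher on the log2 TPM scale in this comparison, so the separation in TPM includes that shift, whereas the tests used TMM-scaled counts. At transcript level, where 9.7% of all transcripts tested were called, the log2 fold change was 0.36 ± 0.07 for the short form (edgeR adjusted p = 9.04e-04) and 0.18 ± 0.04 for the full-length form (edgeR adjusted p = 0.00729). The short form took 35.9% ± 0.848 of the Flt1 TPM in oxidative ECKO against 33.0% ± 0.941 in oxidative WT (SD, n = 5 each). That difference of 2.97 percentage points had a 2-sided exact permutation p of 0.00794, the smallest that 5 libraries against 5 can give, and 0.0635 after adjustment over the 8 share tests, so it did not pass. In glycolytic muscle the share was 35.3% ± 1.1 in ECKO against 34.5% ± 1.26 in WT (exact permutation p = 0.294, adjusted 0.444). The split of reads between forms is kallisto's estimate, and its own error is not in the deposited tables.

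**Figure D3:**
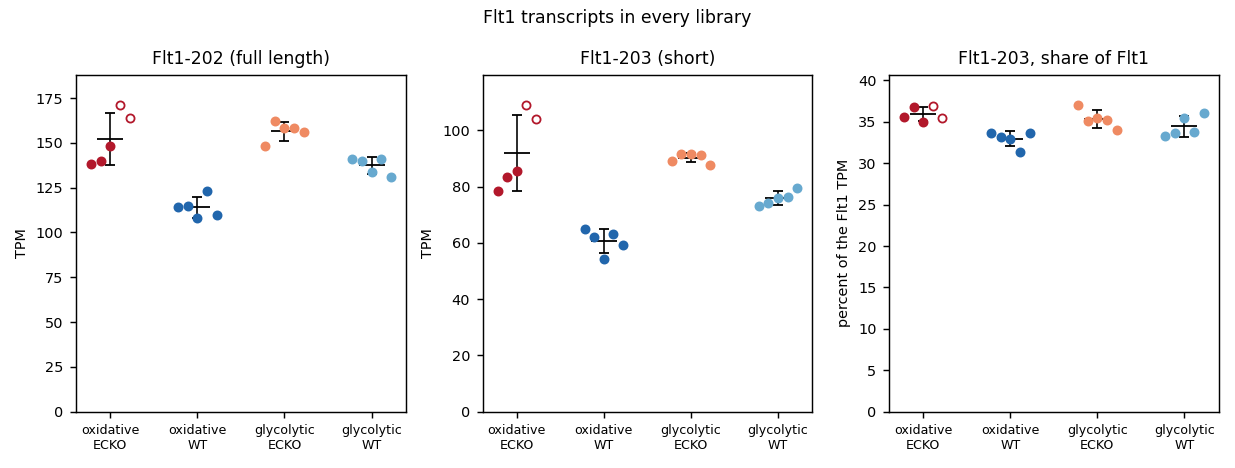
TPM of the full-length form (left) and the short form (middle) of Flt1 and the short form's percent of the Flt1 TPM (right), 1 point per library with mean and SD; open points are oxidative ECKO libraries 4 and 5. The short form's share lies between 35% and 36.9% in oxidative ECKO and between 31.4% and 33.7% in oxidative WT.

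The Flt1 promoter window is shown because it was the only one of the 11 windows of the 9 genes with a match to TGACGTCA, which 1.79% of the 32851 promoters hold. The capitals mark that match, whose first base lies 81 bases before the start, and a match to GCGTG on the minus strand (chr5:147725962-147726261, minus strand, GRCm38.p6, RefSeq).
Flt1 promoter: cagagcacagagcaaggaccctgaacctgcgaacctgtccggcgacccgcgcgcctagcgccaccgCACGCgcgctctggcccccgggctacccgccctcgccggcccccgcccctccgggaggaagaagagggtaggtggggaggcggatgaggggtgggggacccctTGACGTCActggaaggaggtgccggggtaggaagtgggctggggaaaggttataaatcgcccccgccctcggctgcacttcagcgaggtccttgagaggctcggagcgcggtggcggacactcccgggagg
No window of the 9 genes matched TGATGNAA or TGANTCA, which 3.97% and 7.81% of all promoters hold. GCGTG, which 32.4% of promoters hold, was found for 7 of the 9 genes and ACGTG, which 19.6% hold, for Vegfa, and no 2 matches overlapped. Both Vegfa matches lay in its window inside the gene, chr17:46025114-46025413, and its upstream window, chr17:46032328-46032627, held none.

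Flt4 (ENSMUSG00000020357.3, chr11:49609263-49652739, plus strand, GRCm38), the receptor for VEGF-C, was higher in ECKO cells of both muscles. In oxidative muscle it stood at 186, 200.2, 215, 199 and 184 CPM in ECKO libraries, against 147, 140.3, 140.5, 133 and 153 CPM in WT libraries. In glycolytic muscle it stood at 188, 175, 171, 174 and 182 CPM in ECKO libraries, against 154, 135, 151, 146 and 140.3 CPM in WT libraries. The genotypes did not overlap in either muscle, and the log2 fold changes were 0.46 ± 0.05 (edgeR adjusted p = 3.84e-08) and 0.29 ± 0.05 (edgeR adjusted p = 5.91e-05). This was the member least affected by the choice of oxidative ECKO libraries, at 0.49 with libraries 1 to 3 and 0.42 with libraries 4 and 5. The difference of the genotype effect between the muscles lay near the threshold, at 0.17 ± 0.07 (edgeR adjusted p = 0.0823). It passed with oxidative ECKO libraries 1 to 3 (0.20, adjusted p = 0.0421), without oxidative ECKO library 5 (0.20, adjusted p = 0.0427) or glycolytic WT library 2 (0.20, adjusted p = 0.0486), without the low-count filter (0.23, adjusted p = 0.0337) and on the TPM scale (0.29, limma adjusted p = 0.0145). The TPM value includes unequal shifts of the median of all genes, by 0.248 in oxidative and 0.119 in glycolytic genotype. In WT cells the muscles differed by -0.03 ± 0.05 and did not pass. Oxidative ECKO was called above glycolytic ECKO (0.15 ± 0.05, edgeR adjusted p = 0.0414), a call that is lost when oxidative ECKO library 2, 3 or 4 or glycolytic ECKO library 2, 3, 4 or 5 is left out (adjusted p between 0.0511 and 0.139), or with oxidative ECKO libraries 4 and 5 alone (0.10, adjusted p = 0.268). Of the 8 lymphatic endothelial markers, 2 rose with genotype in each muscle and none fell. That is 25% called, below the 32% of all genes in oxidative and 29% in glycolytic muscle. Prox1, the lymphatic master regulator, lay between 1.7 and 2.88 CPM in oxidative ECKO, 1.01 and 2.53 CPM in oxidative WT, 0.511 and 1.62 CPM in glycolytic ECKO, and 0.208 and 2.67 CPM in glycolytic WT, so its ranges overlapped between the genotypes of each muscle. The lymphatic markers summed to between 69.7 and 129 CPM in oxidative ECKO against 77.2 to 124 CPM in oxidative WT, and to between 143 and 156 CPM in glycolytic ECKO against 106 to 111 CPM in glycolytic WT, most of it the chemokine Ccl21a. Their part in the Flt4 difference was not tested.

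Kdr (ENSMUSG00000062960.10, chr5:75932827-75978458, minus strand, GRCm38), the main signalling receptor for VEGF-A, differed little between groups on average and a good deal within one. It stood at 982, 1046, 1081, 1331 and 1294 CPM in oxidative ECKO libraries, against 1225, 1205, 1082, 1181 and 1142 CPM in oxidative WT libraries. Libraries 1 to 3 lay below the WT range and libraries 4 and 5 above it, which left a difference of -0.03 ± 0.06 (edgeR adjusted p = 0.8). Taken alone, libraries 1 to 3 gave -0.17 (edgeR adjusted p = 0.00241) and libraries 4 and 5 gave 0.17 (edgeR adjusted p = 0.00715). In glycolytic muscle Kdr stood at 1012, 1006, 991, 1011 and 1001 CPM in ECKO against 1115, 1093, 1114, 1103 and 1132 CPM in WT. These groups were apart by a log2 difference of -0.15 ± 0.06 that did not pass in the fit of 20 libraries (edgeR adjusted p = 0.0758) and passed in a fit of the glycolytic groups alone (-0.14 ± 0.03, edgeR adjusted p = 1.58e-04) and without the low-count filter (-0.20, adjusted p = 0.00809). Oxidative ECKO was called above glycolytic ECKO by 0.19 ± 0.06 (edgeR adjusted p = 0.0296). That call rested on oxidative ECKO libraries 4 and 5 (0.39 with them alone, 0.04 and adjusted p = 0.526 with libraries 1 to 3), and leaving out oxidative ECKO library 4 (adjusted p = 0.109) or 5 (adjusted p = 0.0986) or glycolytic ECKO library 2 (adjusted p = 0.0535) or 5 (adjusted p = 0.0554) ended it.

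Nrp1 (ENSMUSG00000025810.9, chr8:128358604-128503363, plus strand, GRCm38), which presents VEGF-A to KDR and also binds semaphorins, showed the same split as Kdr. It stood at 719, 746, 845, 1059.7 and 1059.8 CPM in oxidative ECKO libraries, against 973, 918, 869, 967 and 910.3 CPM in oxidative WT libraries. Libraries 1 to 3 were below every WT library and libraries 4 and 5 above every one. The log2 difference was -0.07 ± 0.08 with all 5 (edgeR adjusted p = 0.563), -0.27 with libraries 1 to 3 (edgeR adjusted p = 7.5e-05) and 0.19 with libraries 4 and 5 (edgeR adjusted p = 0.00346). In glycolytic muscle Nrp1 averaged 917 CPM ± 18 in ECKO against 1001 CPM ± 25.4 in WT, with no overlap between the libraries, and the difference of -0.13 ± 0.08 did not pass (edgeR adjusted p = 0.238). In the fit of the glycolytic groups alone it was -0.12 ± 0.03 (edgeR adjusted p = 0.00182), and it also passed without the low-count filter (-0.18, adjusted p = 0.0415). Oxidative ECKO was below glycolytic ECKO with libraries 1 to 3 (-0.25, adjusted p = 3.57e-04) and above it with libraries 4 and 5 (0.21, adjusted p = 0.00297). With libraries 4 and 5 the interaction passed for Nrp1 (0.32, adjusted p = 2.25e-04), as it did for Kdr (0.32, adjusted p = 1.6e-04).

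Nrp2 (ENSMUSG00000025969.15, chr1:62703285-62818695, plus strand, GRCm38), the co-receptor of VEGF-C and FLT4, rose with loss of Atf4 in glycolytic muscle. It stood at 197, 213, 207, 220.3 and 232 CPM in glycolytic ECKO libraries, against 161, 172, 174, 175 and 161 CPM in glycolytic WT libraries. The groups did not overlap and the log2 fold change was 0.34 ± 0.07 (edgeR adjusted p = 5.45e-04). In oxidative muscle it stood at 143, 133, 157, 173 and 185 CPM in ECKO against 149.9, 143, 176, 164 and 169 CPM in WT, overlapping, with -0.02 ± 0.07 (edgeR adjusted p = 0.883). The genotype effects differed by -0.36 ± 0.10 (edgeR adjusted p = 0.00942). That difference was -0.49 with oxidative ECKO libraries 1 to 3 and -0.18 with libraries 4 and 5, where it did not pass (edgeR adjusted p = 0.148), and -0.23 on the TPM scale, where it did not pass either (limma adjusted p = 0.21). On that scale the median of all genes moved by 0.248 in oxidative and 0.119 in glycolytic genotype. Oxidative ECKO lay below glycolytic ECKO by -0.43 ± 0.07 (edgeR adjusted p = 7.53e-05), past the threshold with either set of oxidative libraries (-0.56 and -0.25). In WT the muscles differed by -0.07 ± 0.07 and did not pass. Of the 7 Nrp2 transcripts, 6 passed the filter and none was called for genotype. The estimated share of Nrp2-204 ran between 0.00805% and 34.9% of the Nrp2 TPM within oxidative ECKO alone, so form-level values of Nrp2 are uncertain.

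**Figure D4:**
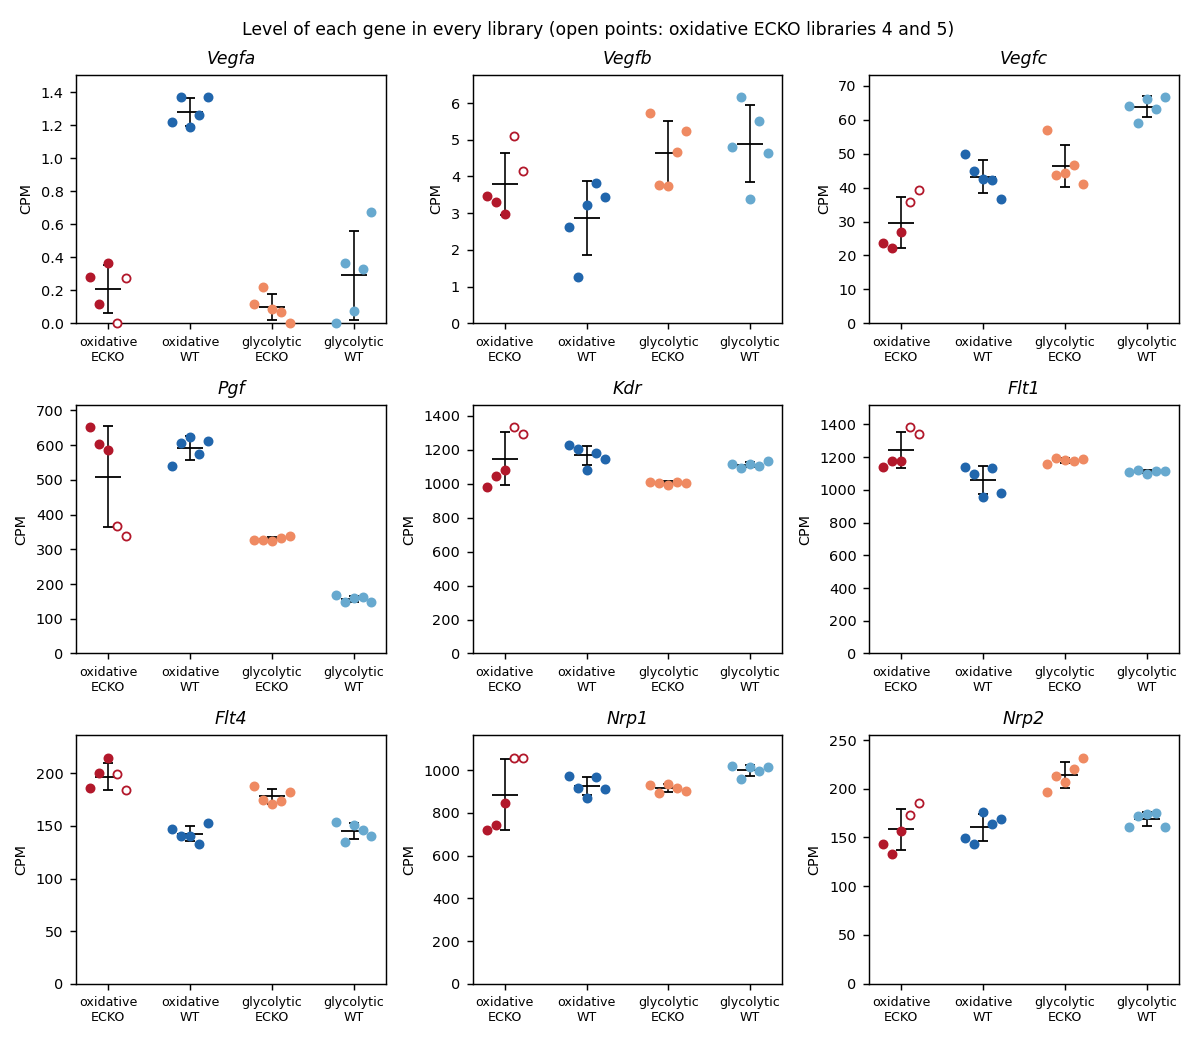
CPM of each of the 9 genes in every library, 1 panel per gene from 0, with mean and SD per group; open points are oxidative ECKO libraries 4 and 5. In the Pgf panel these 2 libraries stand at 367 and 337 CPM, near the glycolytic ECKO libraries at 323 to 339 CPM, and in the Kdr and Nrp1 panels they stand above all oxidative WT libraries.

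The oxidative genotype effect thus depended on the ECKO libraries for 4 of the 9 genes whose direction turned between the sets, Pgf, Kdr, Nrp1 and Nrp2, and Nrp2 passed in neither set. Vegfa, Vegfc, Flt1 and Flt4 kept their direction, and Vegfb was not called in either set. Other RNA moved along with that split. Fibroblast markers summed to 70, 70.1, 241, 458 and 449.7 CPM in oxidative ECKO libraries 1 to 5, lymphatic markers to 71.1, 69.7, 91, 129 and 122 CPM, and myeloid markers to 82.8, 75.3, 74.2, 51.8 and 36.3 CPM. The part of these markers and of sex-linked RNA in the split was not tested.

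**Figure D5:**
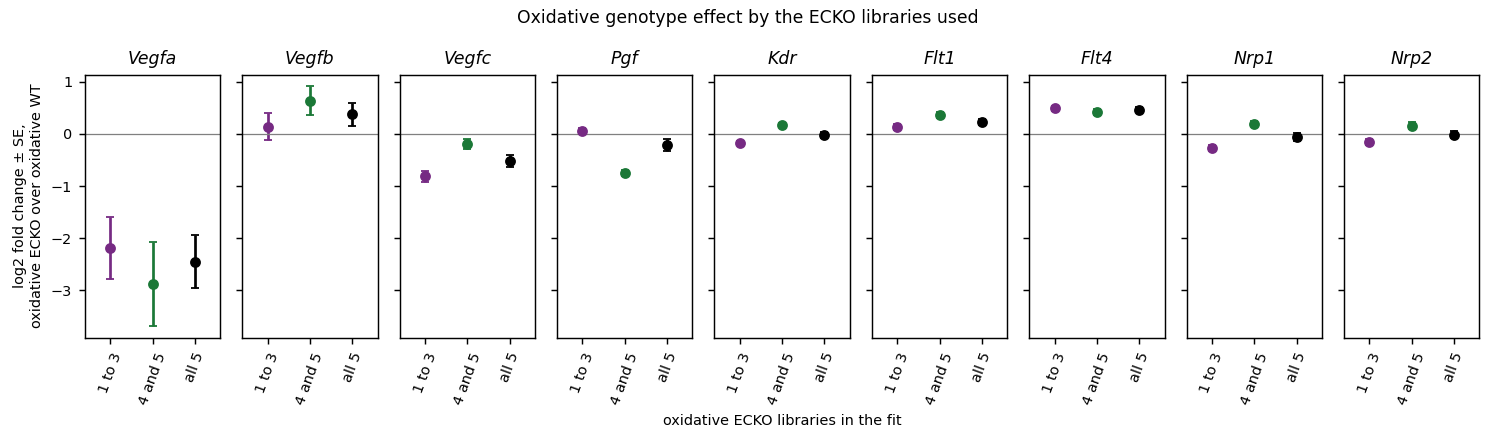
Log2 fold change ± SE of oxidative ECKO over oxidative WT for each gene, with ECKO libraries 1 to 3, libraries 4 and 5, or all 5 in the fit. Pgf stands at 0.05 and -0.75, Kdr at -0.17 and 0.17, and Flt4 at 0.49 and 0.42 in the first 2 fits.

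Among genes that respond to VEGF in endothelium, 27 listed and all tested, 19 were higher and 3 lower in oxidative than in glycolytic WT cells, 81.5% called against 32.4% of all genes, with a median log2 difference of 0.74 against -0.0034 over all genes. Pgf and Vegfc are also on that list. Egr1, an immediate-early transcription factor, averaged 643 CPM ± 16 in oxidative WT against 240.1 CPM ± 7.6 in glycolytic WT (1.42 ± 0.10, edgeR adjusted p = 1.09e-11). Rcan1, a calcineurin inhibitor, averaged 63.5 CPM ± 5.64 against 27.9 CPM ± 1.26 in the same 2 groups (1.18 ± 0.08, edgeR adjusted p = 4.71e-12). Plvap, a protein of endothelial fenestrae and caveolae, was lower, at 353 CPM ± 16.1 in oxidative WT against 726 CPM ± 14.9 in glycolytic WT (-1.04 ± 0.04, edgeR adjusted p = 7.57e-16).

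Genotype moved these genes in both directions. In oxidative muscle 6 rose and 12 fell (66.7% called, against 32% of all genes), with a median of -0.22. Ptgs2, the inducible cyclooxygenase, averaged 0.471 CPM ± 0.168 in oxidative ECKO against 5.06 CPM ± 1.32 in oxidative WT (-3.40 ± 0.28, edgeR adjusted p = 3.44e-10), and Egr1 averaged 292 CPM ± 72.2 against 643 CPM ± 16 (-1.14 ± 0.10, edgeR adjusted p = 6.34e-10). In glycolytic muscle 11 rose and 9 fell (74.1%, against 29%), with a median of -0.06. The tip cell genes Angpt2, Apln and Esm1, which encode an antagonist of TIE2, the apelin peptide and endocan, rose by 1.14 ± 0.08, 1.32 ± 0.10 and 1.17 ± 0.10 (edgeR adjusted p = 3.96e-11, 8.99e-11 and 5.99e-10). Apln averaged 613 CPM ± 20.2 in glycolytic ECKO against 246 CPM ± 8.71 in glycolytic WT, with the same direction as Pgf there. Hlx was among those that fell (-0.76 ± 0.08, edgeR adjusted p = 1.67e-08). In oxidative muscle, Angpt2 averaged 891 CPM ± 171 in ECKO against 577 CPM ± 21.1 in WT. Apln averaged 591 CPM ± 135 against 421 CPM ± 32.4 there, and Esm1 165 CPM ± 34.9 against 118 CPM ± 5.53. Pgf averaged 509 CPM ± 145 in oxidative ECKO against 591 CPM ± 33.5 in oxidative WT, so its direction was not shared there. The interaction called 14 of the 27 lower and 3 higher (63%, against 22.7%).

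Ligand processing and matrix genes changed in part, 4 up and 6 down of 20 tested in each muscle (50%, against 32% of all genes in oxidative and 29% in glycolytic muscle), with medians of -0.02 in both. Ccn2 and Thbs1 encode matricellular proteins that bind or restrain VEGF-A. In glycolytic muscle Ccn2 averaged 1249 CPM ± 21.7 in ECKO against 352 CPM ± 24 in WT (1.83 ± 0.09, edgeR adjusted p = 1.6e-14), and Thbs1 averaged 1285 CPM ± 34.3 in ECKO against 472 CPM ± 13.6 in WT (1.45 ± 0.09, edgeR adjusted p = 1.03e-12). In oxidative muscle Ccn2 was lower, at 505 CPM ± 94.2 in ECKO against 879.6 CPM ± 80.6 in WT (-0.80 ± 0.09, edgeR adjusted p = 4.21e-08). Adamts1, a protease that binds VEGF-A, fell in both muscles, by -0.77 ± 0.10 in oxidative and -0.63 ± 0.10 in glycolytic ECKO (edgeR adjusted p = 8.76e-07 and 2.3e-05).

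Among semaphorins and plexins, the other partners of neuropilins, 3 of 10 tested rose and 1 fell in oxidative ECKO, and 4 rose and 2 fell in glycolytic ECKO (40% and 60%, against 32% and 29% of all genes). Plxna2 and Sema3f rose in both and Plxnd1, the receptor of SEMA3E, fell in both (edgeR adjusted p between 4.88e-04 and 0.0465). Of 23 receptor trafficking and phosphatase genes, 4 rose and 4 fell in oxidative ECKO, and 2 rose and 10 fell in glycolytic ECKO. That is 34.8%, near the 32% of all genes, and 52.2%, against 29%. Cdh5, VE-cadherin, which forms complexes with KDR, averaged 764 CPM ± 38.2 in glycolytic ECKO against 1015 CPM ± 62.9 in glycolytic WT (-0.41 ± 0.06, edgeR adjusted p = 3.83e-06). Of 38 tested genes of receptor signalling, 9 rose and 5 fell in oxidative ECKO, and 4 rose and 14 fell in glycolytic ECKO, which is 36.8%, near the 32% of all genes, and 47.4%, against 29%. Sphk1, sphingosine kinase, rose in glycolytic ECKO to 42.8 CPM ± 4.07, against 22.6 CPM ± 0.836 in WT (0.92 ± 0.07, edgeR adjusted p = 3.36e-10).

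Of 32 tested transcription factors of these genes, 5 rose and 7 fell in oxidative ECKO, and 2 rose and 15 fell in glycolytic ECKO, Atf4 among the falls in both. That is 37.5%, near the 32% of all genes, and 53.1%, against 29%. Ets1, which drives VEGF receptor genes, fell in both muscles by -0.41 ± 0.06 (edgeR adjusted p = 3.73e-06 in oxidative and 5.73e-06 in glycolytic ECKO). Hif1a fell in oxidative ECKO to 158 CPM ± 11.9, against 205 CPM ± 10.2 in WT (-0.38 ± 0.05, edgeR adjusted p = 3.38e-06). Its mean was lower in glycolytic ECKO too, at 145 CPM ± 10.3 against 176 CPM ± 5.87 in glycolytic WT. Of 17 tested HIF targets, 7 rose and 5 fell in oxidative ECKO, and 5 rose and 3 fell in glycolytic ECKO (70.6% and 47.1%, against 32% and 29%). Adm, which encodes adrenomedullin, moved like Ccn2. It averaged 174 CPM ± 19.8 in oxidative ECKO against 319 CPM ± 21.5 in oxidative WT (-0.88 ± 0.07, edgeR adjusted p = 7.12e-11), and 271 CPM ± 17.7 in glycolytic ECKO against 143 CPM ± 9.14 in glycolytic WT (0.92 ± 0.07, edgeR adjusted p = 4.47e-11).

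The genes whose log2(CPM + 0.5) values followed 8 of the 9 members most closely over the 20 libraries were taken as the 3 with the highest Pearson r among tested genes averaging 4 CPM or more. For Pgf these were Ccl2, Cebpd and Rhoc (r = 0.96, 0.95 and 0.94), and for Nrp1 they were Jam2, Sparcl1 and Sema6a (r = 0.97, 0.97 and 0.92). Kdr was closest to Clic5, Myo6 and Fmo1 (r = 0.90, 0.89 and 0.88), Flt1 to Sh2d3c, Arl4a and Atf7ip (r = 0.93, 0.91 and 0.89), and Flt4 to Tln1, Esr1 and Exoc3l (r = 0.93, 0.93 and 0.92). Nrp2 was closest to Aatk, Psmg3 and Txnip (r = 0.88, 0.86 and 0.85). For the low genes the values were 0.93, 0.92 and 0.92 for Vegfa with Pgm2, Gadd45a and Fth1, and 0.82, 0.81 and 0.81 for Vegfb with Nfkbil1, Cers5 and Rnf215. The points share the 4 groups, the libraries and their scaling, so these are descriptions of likeness over 20 libraries.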

How the data were processed

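RNA of sorted muscle endothelial cells was sequenced from 1 end with reads of 100 bases from stranded, poly(A)-selected libraries, per the labels' protocols. The authors deposited 1 table per library that gives, per the file headers, the estimated count and the TPM of each of 129439 transcripts, with its length and effective length. The submitters' processing notes name kallisto and DESeq2 without versions, and a human build, GRCh38.p13. The transcript IDs are mouse, and 128550 were found in GENCODE M21 (GRCm38), 128254 with identical length; between 0.19% and 0.233% of a library's counts lay in the others and were left out. The version of the mouse transcriptome and the strand setting are not given in the sources used here.

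Estimated counts were summed per gene and rounded. Genes (13964) and transcripts (33999) that passed filterByExpr went into edgeR's quasi-likelihood framework (version 4.0.16, run under R 4.3.3; TMM scaling), as 1 fit of 4 group means over all 20 libraries and Benjamini-Hochberg adjustment over everything tested. The SE is the log2 value over the square root of F. The procedure was tested on simulated data. TPM was used to compare genes and for isoform shares, with 2-sided exact permutation tests for Flt1. The 40 within-group library pairs all differed by more than sampling noise (chi-square over degrees of freedom 2.21 to 8.51). Library preparation and estimation error can also produce this, so it does not show that the libraries came from separate animals. Each library counted once. Total counts per library bound the precision, and a Vegfa value rests on at most 20 counts. Replicate numbers do not pair the libraries (30 same-number correlations between -0.084 and 0.094). Alternatives were RLE factors, no filter, DESeq2 1.42.0, limma-voom 3.58.1, a length offset, only the groups compared, the replicate block, each library left out, and oxidative ECKO libraries 1 to 3 or 4 and 5 alone. The TPM scale was added after seeing the data.

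The 9 genes, the pathway and marker lists and the split of the oxidative ECKO libraries were chosen with earlier results of these data known. The rule named the 9 genes, Vegfa and Flt1 forms with at least 5% of the gene, up to 4 genes per list and comparison by adjusted p, of which part is given, and the 3 genes most like each member. The genes most like Vegfc are not reported here. Vegfb, Pgf and Nrp2 transcripts and the motifs were added to the rule's genes once values had been seen.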

Additional observations from a re-analysis of the deposited data

Results flagged for a closer look

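The genotype effect on 2 of the 9 genes differed between the muscles by a test of the difference itself. For Pgf, the ECKO over WT effect in oxidative muscle minus that in glycolytic muscle was -1.28 (edgeR adjusted p = 1.99e-06), with 5 of 5 glycolytic ECKO libraries above all glycolytic WT libraries and 2 of 5 oxidative ECKO libraries below all oxidative WT libraries. For Nrp2 the difference was -0.36 (edgeR adjusted p = 0.00942), with 5 of 5 glycolytic ECKO libraries above all glycolytic WT libraries and overlapping oxidative groups. No single library stood apart by Dixon's ratio in 44 groups of 5 values, a rule that by chance marks about 1 in 20 groups. The ratio looks at 1 extreme value. It cannot mark 2 libraries that stand apart together, as oxidative ECKO libraries 4 and 5 did for Pgf, Kdr and Nrp1.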

How the results depend on the processing

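All 19 called differences of the 9 genes kept their direction under the alternatives run. Most calls that were lost are named in the report. The Kdr and Flt4 differences between ECKO muscles were lost in addition on the TPM scale and with only the groups compared, and that of Flt4 with a length offset. In the muscle comparison of ECKO cells, members called ranged from 3 to 5 when single libraries were left out, were 3 when only the groups compared were fitted, and were 3 on the TPM scale. Fitting only the groups compared gave 7 members called for genotype in glycolytic muscle. The interaction called 4 members with oxidative ECKO libraries 1 to 3 and 4 with libraries 4 and 5. The TPM scale called 7 members for genotype in oxidative muscle and 8 between WT muscles. On it the median of all genes itself moved by 0.248 in the oxidative and 0.119 in the glycolytic genotype comparison, and by -0.205 between WT muscles. Without the low-count filter, 1137 transcripts were called between the muscles in ECKO.

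The values whose direction turned were not called in the fit of all libraries. With oxidative ECKO libraries 1 to 3, Pgf was 0.05 for oxidative genotype, Flt1 -0.022 between ECKO muscles, and the interaction -0.026 for Kdr and -0.143 for Nrp1. With libraries 4 and 5, oxidative genotype gave 0.169 for Kdr, 0.191 for Nrp1 and 0.158 for Nrp2, the ECKO muscles 0.209 for Nrp1, and the interaction 0.268 for Vegfc. On the TPM scale, oxidative genotype gave 0.212 for Kdr, 0.162 for Nrp1 and 0.227 for Nrp2, all at or under the median shift, glycolytic genotype 0.017 for Vegfb, and the muscles -0.144 for Kdr in WT and -0.007 for Flt1 in ECKO. A length offset gave an interaction of 0.36 for Vegfa, no filter gave -0.028 for full-length Flt1 in glycolytic genotype, limma-voom gave 0.048 for Vegfb-201 there, and shares of counts gave 0.33 points for full-length Flt1 between WT muscles.

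With single libraries left out, oxidative genotype ran from -0.088 to 0.026 for Kdr, -0.142 to 0.001 for Nrp1 and -0.083 to 0.036 for Nrp2. Glycolytic genotype ran from -0.202 to 0.001 for Vegfb, the ECKO muscles from -0.122 to 0.017 for Nrp1, and the WT muscles from -0.052 to 0.002 for Flt4. The interaction ran from -0.202 to 0.01 for Vegfc and -0.014 to 0.128 for Nrp1. The share of full-length Flt1 ran from -1.38 to 0.246 points between WT muscles and from -2.05 to -0.896 points for glycolytic genotype, where it passed without glycolytic WT library 5 (exact permutation, adjusted p = 0.0317). The cause of these changes was not tested.

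Replicate numbers do not pair the libraries. With the replicate block, members called were 4, 4, 4, 4 and 2 in the 5 comparisons, and only the Flt4 difference between ECKO muscles was lost (0.145, adjusted p = 0.0586). DESeq2 and RLE factors changed no member call. Depth limits Vegfa, with at most 20 counts per library, and Vegfb most.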
